A study of Mus musculus with 8 samples.

Results

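Complex I of the respiratory chain takes electrons from NADH, passes them to ubiquinone and pumps protons across the inner mitochondrial membrane. It has a peripheral arm in the matrix, where NADH is oxidized by a flavin and a chain of iron-sulfur clusters, and a membrane arm that carries the proton pumps. The core subunits of the membrane arm are encoded by mitochondrial DNA, while every other subunit is encoded in the nucleus, made in the cytosol and imported. The liver of a fasted mouse oxidizes fatty acids and makes ketone bodies, and much of the NADH formed on the way is reoxidized by complex I.

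The genes described here are the 37 of 45706 genes in the deposited table whose symbols start with Nduf, followed by a, b, c, s or v and a number. This choice takes 7 core subunits of the peripheral arm, 9 accessory subunits of that arm, 19 accessory subunits of the membrane arm, and Ndufa4 and Ndufa4l2, which carry the family name although Ndufa4 is now counted as a subunit of cytochrome c oxidase. It leaves out Ndufab1, the acyl carrier protein that is part of the complex, and the assembly factors, which are described separately. The 37 genes lie on 15 chromosomes of GRCm38 (GENCODE release M21). All 37 had enough counts to be among the 14629 genes tested.

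RNA was sequenced from the liver of 4 WT and 4 S155A mice, 1 library per mouse. All were C57BL/6J females, 4 months old and fasted overnight. S155A mice (SA/SA in the study) carried a whole-body knock-in, made with CRISPR-Cas9, that replaces the serine of PLIN5 named in S155A with alanine, a residue that cannot be phosphorylated. PLIN5 is a lipid droplet protein that is also found where droplets touch mitochondria. Library totals ranged from 39709830 to 54540612 counts. The labels name both liver and hepatocytes, and hepatocyte markers such as Alb were the most abundant of the marker genes in every library. Levels are given as CPM, the counts of a gene relative to library size after TMM scaling, and differences as log2 fold changes of S155A against WT from edgeR's quasi-likelihood test with Benjamini-Hochberg adjustment over all 14629 genes tested. In whole tissue, fewer cells and less RNA per cell cannot be told apart.

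Plin5, the edited gene, was at 254, 194, 182 and 194 CPM in WT replicates 1 to 4 and at 457, 276, 192 and 386 CPM in S155A replicates 1 to 4. S155A replicate 3 lay inside the range of the WT mice and the 3 other S155A mice lay above it. S155A minus WT was 0.67 on the log2 scale (standard error 0.24), with an adjusted p of 0.993 from edgeR. Gene counts cannot show which codon a read carried.

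The promoters of the complex I genes are described first, and their part in the levels given below was not tested. RefSeq (GRCm38.p6) gave 34 promoters for 32 of the 37 genes, each with 250 bases before and 50 bases after the transcript start. Letters of 3 motifs were searched on both strands: TGCGCA, a palindrome and half-site of NRF1, CCGGAAG, a core bound by ETS factors such as GABP, and AAGATGGC, a core bound by YY1. No motif contains another. TGCGCA was in 11 of 34 promoters (32.4%) and in 7.76% of all 32851 promoters of the same length. AAGATGGC was in 7 of 34 (20.6%) against 2.75% of all, always on the coding strand and starting between 23 and 39 bases after the transcript start. These letters include ATG, the start codon, and whether the matches lie at the start of translation was not tested. CCGGAAG was in 4 of 34 (11.8%) against 8.86% of all. At least 1 of the 3 motifs was in 18 of 34 promoters (52.9%), or 17 of 32 genes, and in 17.3% of all promoters. The median GC content was 59% in the complex I promoters and 52.7% in all promoters, and its part in these shares was not tested.

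The promoters of 4 genes are printed, read in the direction of transcription from the reverse strand, with the motif letters in capitals. Ndufa9 (chr6:126849095-126849394) and Ndufb8 (chr19:44555393-44555692) hold both the NRF1 half-site and the YY1 core, Ndufs5 (chr4:123718137-123718436) is the gene with the largest log2 fold change and holds 1 NRF1 half-site, and Ndufs3 (chr2:90904672-90904971) is a core subunit gene with the ETS core once on each strand.
Ndufa9: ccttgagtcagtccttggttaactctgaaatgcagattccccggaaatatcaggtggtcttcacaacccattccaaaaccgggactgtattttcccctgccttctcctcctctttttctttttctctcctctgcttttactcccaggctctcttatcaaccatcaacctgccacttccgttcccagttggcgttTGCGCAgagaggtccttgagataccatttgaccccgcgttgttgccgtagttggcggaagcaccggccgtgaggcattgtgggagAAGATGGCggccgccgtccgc
Ndufb8: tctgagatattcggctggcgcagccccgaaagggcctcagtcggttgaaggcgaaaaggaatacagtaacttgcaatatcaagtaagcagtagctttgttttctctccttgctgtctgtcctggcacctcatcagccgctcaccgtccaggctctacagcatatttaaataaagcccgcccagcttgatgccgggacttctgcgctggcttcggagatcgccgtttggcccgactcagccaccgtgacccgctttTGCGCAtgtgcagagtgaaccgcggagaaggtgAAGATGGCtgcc
Ndufs5: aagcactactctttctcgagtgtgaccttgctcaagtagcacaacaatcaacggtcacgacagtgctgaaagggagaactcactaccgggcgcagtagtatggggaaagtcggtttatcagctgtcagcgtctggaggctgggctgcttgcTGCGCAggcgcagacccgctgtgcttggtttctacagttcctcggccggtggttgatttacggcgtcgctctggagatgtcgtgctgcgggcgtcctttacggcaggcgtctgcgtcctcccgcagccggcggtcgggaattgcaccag
Ndufs3: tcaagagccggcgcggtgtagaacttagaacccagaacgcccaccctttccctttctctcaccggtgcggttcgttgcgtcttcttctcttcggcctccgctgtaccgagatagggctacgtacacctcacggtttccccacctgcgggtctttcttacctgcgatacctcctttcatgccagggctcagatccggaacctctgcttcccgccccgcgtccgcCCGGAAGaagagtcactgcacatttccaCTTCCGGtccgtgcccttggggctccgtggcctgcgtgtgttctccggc
In Ndufa9 the half-site starts 56 bases before the transcript start and the YY1 core starts at base 30 of the transcript. In Ndufb8 the positions are bases 6 and 39 of the transcript. A match of letters describes the sequence and is no evidence of binding.

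Most complex I transcripts had slightly higher mean levels in S155A than in WT livers, with differences that were small against the spread between mice. Of the 37 genes, 35 (94.6%) had a log2 fold change above 0, where 48.8% of all genes tested had one. The median log2 fold change was 0.12 over the 37 genes and -0.0050 over all genes. No gene of the complex passed the test. At an adjusted p under 0.05 edgeR called 0 of 37, as it called 0% of all genes, and limma-voom and DESeq2 also called 0 of 37. At an unadjusted p under 0.05 edgeR gave 0 of 37 against 3.4% of all genes (497), while DESeq2 and limma-voom gave 1 each, Ndufs5, against 4.07% and 3.19% of all genes. The smallest unadjusted p was 0.0502 for Ndufs5, and the smallest adjusted p was 0.993.

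The WT and S155A mice overlapped for every one of the 37 genes. Among all genes tested, 0.943% had every S155A mouse above every WT mouse and 1.36% had every S155A mouse below, against 0 of 37 in each direction here. The smallest p of a two-sided exact permutation test was 0.0571, where 4 mice against 4 can reach 0.0286. For 27 of the 37 genes the SD of log2 CPM among WT mice was larger than the log2 fold change. The 95% interval held 0 for 37 of 37 genes. Leaving aside the scarce Ndufa4l2, the intervals of the 36 other genes ran from 0.836-fold to 1.52-fold, so 2-fold changes in either direction lay outside them.

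**Figure D1:**
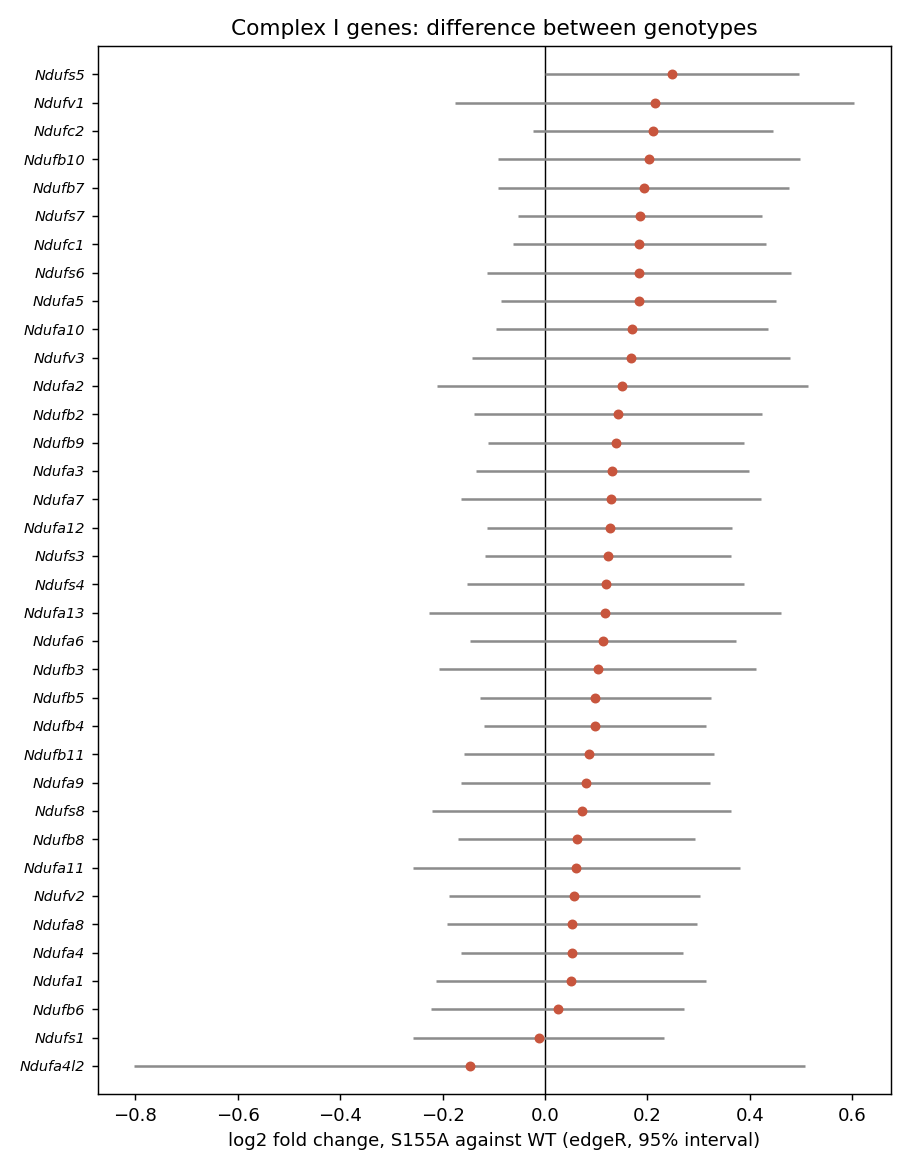
Log2 fold change of S155A against WT for 36 of the complex I genes (points) with 95% intervals (lines) from edgeR, 4 mice per genotype, ordered by size. Of the points, 34 lie right of 0, and the line of every gene shown crosses or touches 0.

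The spread had a pattern that ran across the whole complex. S155A replicate 2 had the highest CPM of the 8 mice for 25 of 37 genes, and WT replicate 4 had the lowest for 28 of 37. Relative to each gene's mean over the 8 mice, the median log2 CPM of the 37 genes was -0.10, 0.095, -0.025 and -0.23 in WT replicates 1 to 4. It was -0.074, 0.21, 0.087 and 0.039 in S155A replicates 1 to 4. WT replicate 2 lay above S155A replicates 1, 3 and 4, and S155A replicate 1 lay among the WT mice. WT replicate 4 was above the gene mean for 1 of 37 genes and S155A replicate 2 for 34 of 37. S155A replicate 2 had the lowest TMM factor, 0.925, which raised its CPM against those of the other mice. As a share of all counts, without that scaling, the 37 genes were at 0.435% in S155A replicate 2 and 0.432% in WT replicate 2. They were at 0.416% in S155A replicate 3 and in WT replicate 3, and lowest, at 0.357%, in WT replicate 4.

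The summed CPM of the 37 genes was 3736, 4381, 3973 and 3446 in WT replicates 1 to 4 and 3802, 4705, 4361 and 4070 in S155A replicates 1 to 4. Those sums overlapped between genotypes, since WT replicate 2 was above 3 of the 4 S155A mice. Leaving out 1 mouse moved the median log2 fold change by over 1.5 times in 3 cases. It was 0.071 without WT replicate 4, with 28 of 37 genes higher in S155A mice, 0.075 without S155A replicate 2 (33 of 37) and 0.19 without WT replicate 2 (35 of 37).

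The labels carry animal numbers of 2 kinds. Replicates 1 and 4 of both genotypes have numbers below 200, here called the low series, and replicates 2 and 3 have numbers above 800, the high series. What the numbers stand for is not given in the sources used here. In each genotype both high-series mice had a higher median relative to the gene means than both low-series mice. These medians were, WT first, -0.10, -0.23, -0.074 and 0.039 in the low series and 0.095, -0.025, 0.21 and 0.087 in the high series. As a share of all counts before TMM scaling, the low series ran from 0.357% to 0.415% and the high series from 0.416% to 0.435%. This difference between series was not tested. Within the low series the median difference in log2 CPM, S155A minus WT, came to 0.14 and 34 of 37 genes were higher, and within the high series it came to 0.11 and 32 of 37 were higher. In both series 30 of the 37 genes were higher in S155A mice. The interaction of genotype and series was called for 0 of 37 genes and for 0% of all genes (edgeR). At an unadjusted p under 0.05 it gave 0 of 37 and 1622 of all 14629 genes, where the test of genotype gave 497 of them. Its smallest p was 0.128 among the 37 genes (edgeR).

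**Figure D2:**
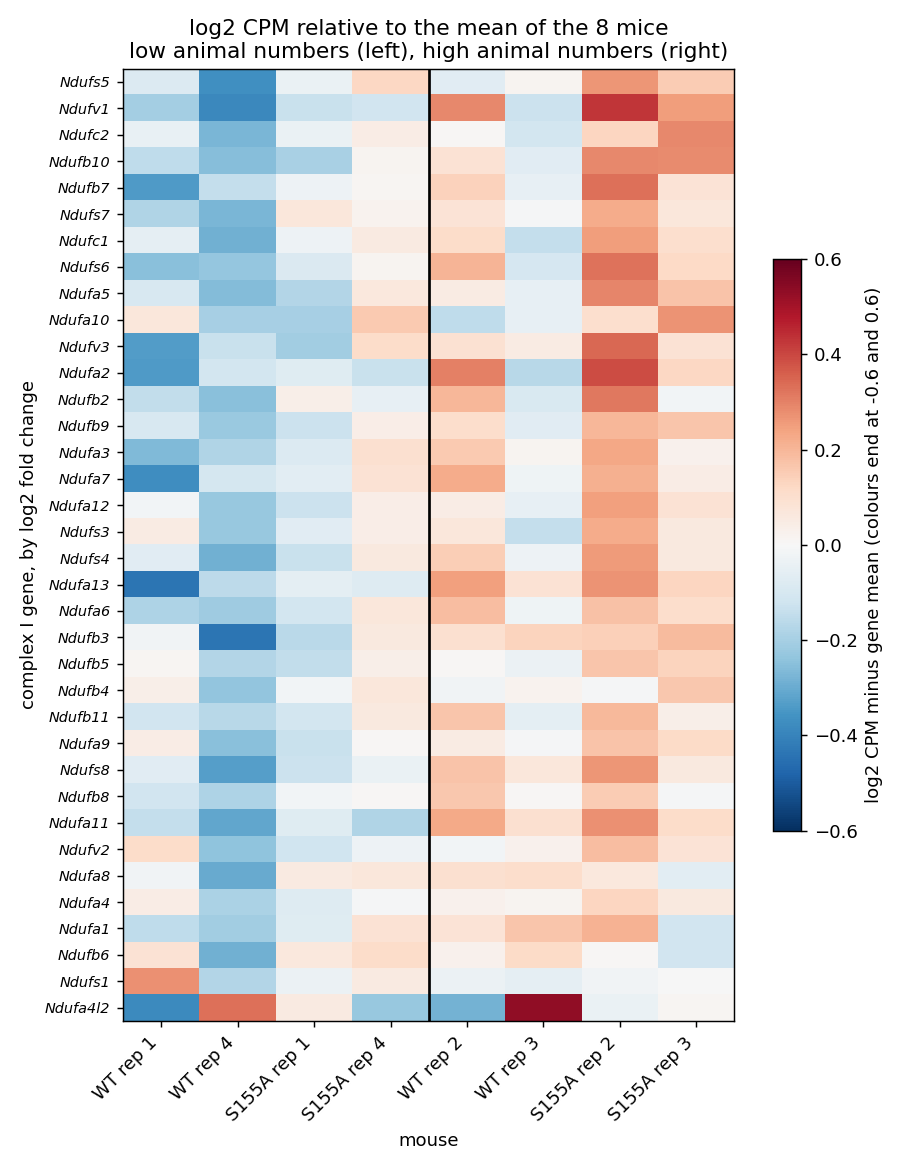
Log2 CPM of each of 36 genes minus its mean over the 8 mice (colour, blue below and red above, ending at -0.6 and 0.6), genes in rows by log2 fold change and mice in columns, low animal numbers left of the line and high ones right. The column of WT replicate 4 is blue for nearly all genes and that of S155A replicate 2 is red for nearly all.

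The 7 core subunits of the peripheral arm carry the flavin, the iron-sulfur clusters and the ubiquinone site. Of these, 6 had a log2 fold change above 0, their median was 0.12, and 0 of 7 passed the test. Ndufv1 (ENSMUSG00000037916, chr19:4007384-4012806) encodes the subunit that binds NADH and the flavin. It was at 187, 262, 196 and 164 CPM in WT replicates 1 to 4 and at 196, 289, 255 and 198 CPM in S155A replicates 1 to 4. The high values belonged to WT replicate 2 and S155A replicates 2 and 3, which are mice of the high series, and the genotypes overlapped. The means were 202 ± 42.1 CPM in WT and 234 ± 45.6 CPM in S155A mice (SD, n = 4 each), with a log2 fold change of 0.21 (standard error 0.18).

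Ndufv2, which holds an iron-sulfur cluster beside Ndufv1, was at 113, 103, 106 and 88.2 CPM in WT replicates 1 to 4 and at 96.0, 118, 110 and 102 CPM in S155A replicates 1 to 4. The ranges overlapped almost in full (log2 fold change 0.058, standard error 0.11), and without WT replicate 4 the sign turned, at -0.0077. Ndufs1 (chr1:63143596-63176833), the largest subunit and the carrier of several iron-sulfur clusters, was at 119, 96.2, 95.1 and 87.2 CPM in WT replicates 1 to 4. In S155A replicates 1 to 4 it was at 96.2, 97.3, 98.5 and 102 CPM. It was the only core gene with a negative log2 fold change, -0.012 (standard error 0.11), which was 0.091 without WT replicate 1, the highest mouse, and 0.0016 without S155A replicate 2.

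Ndufs7, which carries the last iron-sulfur cluster before ubiquinone, was at 117, 140, 132 and 109 CPM in WT replicates 1 to 4 and at 139, 154.6, 139 and 134 CPM in S155A replicates 1 to 4. Only WT replicate 2 reached the S155A mice, and the log2 fold change of 0.19 (standard error 0.11) had an unadjusted p of 0.114.

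Ndufs3, a matrix subunit that holds no cluster, had means of 126 ± 12.5 CPM in WT and 137 ± 11.6 CPM in S155A mice (SD, n = 4 each), a log2 fold change of 0.12 (standard error 0.11). Ndufs8, which carries 2 iron-sulfur clusters on the path to ubiquinone, was at 62.7, 73.9, 68.9 and 52.3 CPM in WT replicates 1 to 4 and at 60.0, 78.8, 68.4 and 63.8 CPM in S155A replicates 1 to 4. WT replicate 4 alone stood below the S155A mice. The log2 fold change of Ndufs8 was 0.072 (standard error 0.13), and it was -0.016 without WT replicate 4 and -0.00055 without S155A replicate 2.

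**Figure D3:**
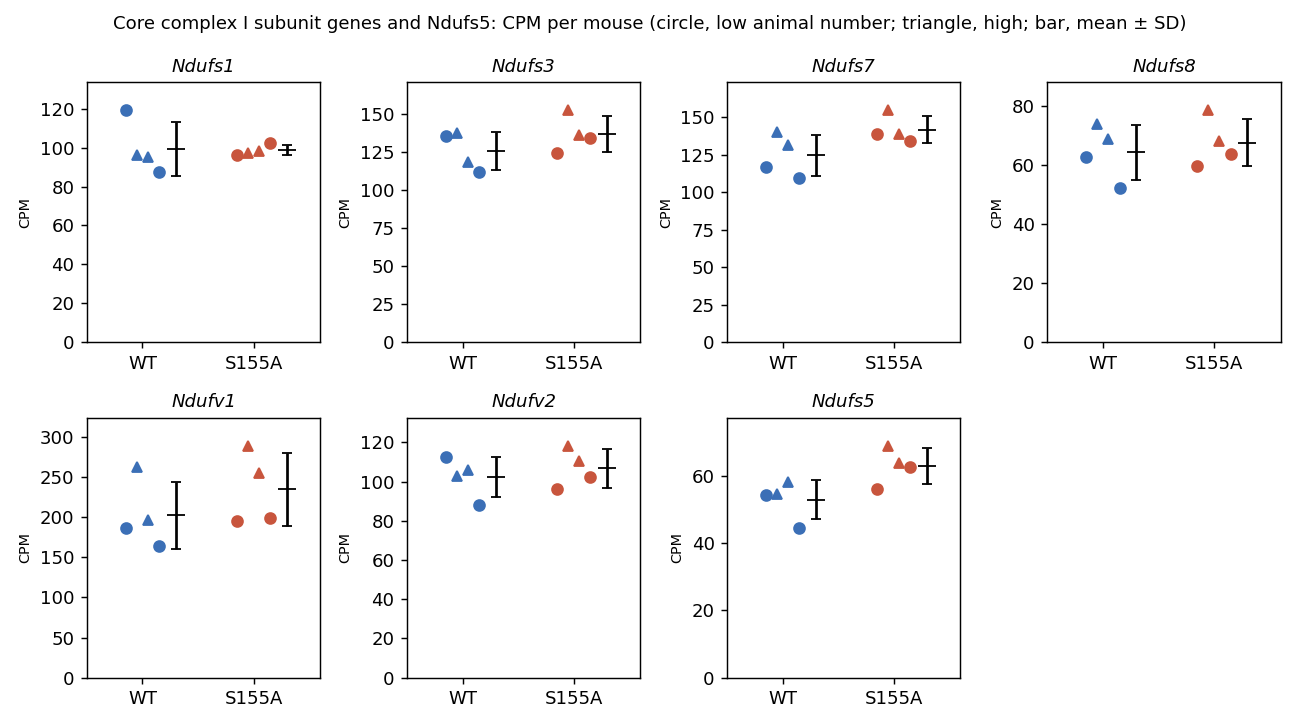
CPM of 6 core subunit genes and of Ndufs5 in each mouse (axes start at 0). Circles are mice with low animal numbers, triangles mice with high ones, and bars the mean ± SD of 4 mice; in every panel some S155A mice lie within or beside the WT range.

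Accessory subunits surround the core and are needed for its assembly and stability. The 9 of the peripheral arm had log2 fold changes between 0.080 (Ndufa9) and 0.18 (Ndufs6), all above 0, with a median of 0.13, and 0 of 9 passed the test. Ndufs4, whose loss in mice is a model of Leigh syndrome, was at 74.3, 86.0, 76.2 and 63.6 CPM in WT replicates 1 to 4 and at 70.9, 92.8, 81.0 and 81.2 CPM in S155A replicates 1 to 4. Its genotypes overlapped, with WT replicate 4 lowest and S155A replicate 2 highest, as for most of the complex. The log2 fold change was 0.12 (standard error 0.12). Ndufs6, a zinc-binding subunit, was at 76.3, 105, 84.5 and 77.3 CPM in WT replicates 1 to 4 and at 85.5, 114, 98.7 and 91.7 CPM in S155A replicates 1 to 4. Within each series both S155A mice of Ndufs6 were above the WT mice of that series except S155A replicate 3, which was below WT replicate 2. The remaining genes of this group, Ndufa2, Ndufa5, Ndufa6, Ndufa7, Ndufa12 and Ndufv3, had log2 fold changes from 0.11 to 0.18.

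In the membrane arm, 19 of 19 accessory subunit genes had a log2 fold change above 0, from 0.025 to 0.25 with a median of 0.12, and 0 of 19 passed the test. Within the high series 15 of these 19 were higher in S155A mice and within the low series 19 of 19. Ndufs5 (ENSMUSG00000028648, chr4:123712710-123718202), a subunit on the intermembrane space side and the gene with the largest log2 fold change, was at 54.4, 54.8, 58.3 and 44.5 CPM in WT replicates 1 to 4. In S155A replicates 1 to 4 it was at 56.0, 69.1, 64.0 and 62.7 CPM. Only WT replicate 3 and S155A replicate 1 crossed. The means were 53.0 ± 5.92 CPM and 62.9 ± 5.37 CPM (SD, n = 4 each), which gave 0.25 as log2 fold change (standard error 0.11) and an adjusted p of 0.993 from edgeR. Within the low series S155A mice were higher by 0.27 and within the high series by 0.23. Over the alternatives tried, its adjusted p was at least 0.798.

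Ndufc2 (ENSMUSG00000030647, chr7:97400003-97407802) was at 47.8, 49.5, 45.6 and 40.7 CPM in WT replicates 1 to 4 and at 48.0, 53.8, 60.1 and 50.8 CPM in S155A replicates 1 to 4. A single pair of mice crossed, WT replicate 2 and S155A replicate 1. Its log2 fold change was 0.21 (standard error 0.10, unadjusted p = 0.072). With scaling to library size alone it was the 1 gene of the 37 whose genotypes did not overlap, with the WT mice up to 48.9 CPM and the S155A mice from 49.7 CPM. Under that scaling 0.697% of all genes had every S155A mouse above every WT mouse and 1.41% below. Ndufb10, another subunit of the intermembrane space side, had means of 144 ± 14.6 CPM and 166 ± 26.0 CPM (SD, n = 4 each) and a log2 fold change of 0.20 (standard error 0.13), and Ndufb7, of the same side, one of 0.19 (standard error 0.13).

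For several membrane arm genes with smaller log2 fold changes, the sign rested on 1 mouse. Ndufb6 (ENSMUSG00000071014) was at 46.8, 44.8, 47.6 and 36.02 CPM in WT replicates 1 to 4 and at 45.9, 44.2, 40.6 and 47.6 CPM in S155A replicates 1 to 4. Without WT replicate 4, its log2 fold change of 0.025 (standard error 0.11) became -0.058. Ndufa8 was at 110, 120, 120 and 90.8 CPM in WT replicates 1 to 4 and at 116, 117, 107 and 117 CPM in S155A replicates 1 to 4. Here the low series was higher and the high series lower in S155A mice, by 0.22 and -0.10 in mean log2 CPM.

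Ndufa1, an X-linked gene of the membrane arm, was at 46.8, 54.9, 58.3 and 44.9 CPM in WT replicates 1 to 4 and at 49.4, 59.9, 48.0 and 55.1 CPM in S155A replicates 1 to 4. Ndufa11, at the face of the membrane arm that meets complex III, was at 61.5, 79.5, 72.8 and 54.9 CPM in WT replicates 1 to 4 and at 64.7, 82.2, 73.4 and 60.0 CPM in S155A replicates 1 to 4. Ndufb3 was at 54.7, 59.2, 60.9 and 40.9 CPM in WT replicates 1 to 4 and at 49.6, 61.2, 63.2 and 57.7 CPM in S155A replicates 1 to 4. The genotypes overlapped broadly for all 3 genes, with log2 fold changes of 0.052, 0.061 and 0.10. Without WT replicate 4 these were -0.0062, -0.024 and -0.0085.

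Ndufa4 (ENSMUSG00000029632, chr6:11900292-11907497) was at 261, 258, 256 and 222 CPM in WT replicates 1 to 4 and at 240, 277, 264 and 252 CPM in S155A replicates 1 to 4, a log2 fold change of 0.052 (standard error 0.097). Its paralog Ndufa4l2 (chr10:127514967-127517154), known as a gene induced by hypoxia, was close to absent. It was at 0.783, 0.837, 1.47 and 1.28 CPM in WT replicates 1 to 4 and at 1.06, 0.993, 1.03 and 0.870 CPM in S155A replicates 1 to 4. The WT mice spanned all S155A mice, and the log2 fold change of -0.15 (standard error 0.29) was 0.029 without WT replicate 3.

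Per kilobase of transcript, the complex I genes apart from Ndufa4l2 spanned from 31.9 CPM per kilobase for Ndufc1 and 35.1 for Ndufb4 to 357 for Ndufb9 and 416 for Ndufa4, as means over the 8 mice. Ndufa6 was next at 248 CPM per kilobase. Ndufa4l2 was at 1.11 CPM per kilobase. The level of Ndufb4 may be understated, since its reads could have been divided with a pseudogene that held 67.5% as many counts. The core gene Ndufs7 was at 175 CPM per kilobase and the core gene Ndufs1 at 38.2, although the complex holds 1 copy of each protein. For each gene except Ndufa4l2 the ratio of the highest to the lowest mouse was between 1.25 and 1.76, with a median of 1.41 over the 37 genes. The differences in level between genes at the ends of this order were thus far larger than those between mice, whereas neighbours in the middle of the order differed by less than that spread.

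**Figure D4:**
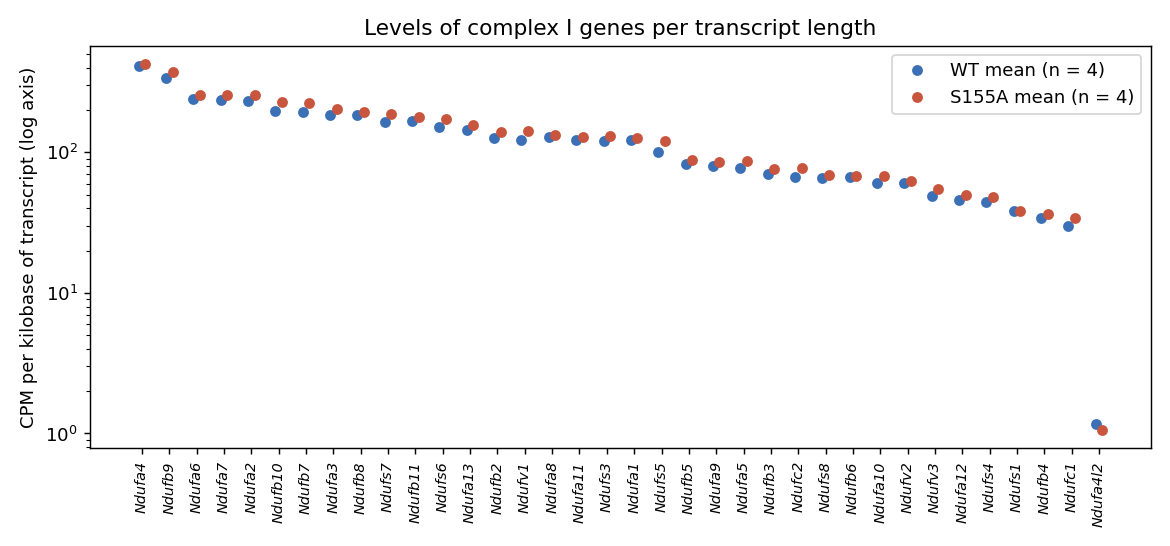
Mean level of each of 36 genes in CPM per kilobase of transcript (log axis), WT and S155A side by side, 4 mice each. Ndufa4 is at the left at about 416 over the 8 mice and Ndufa4l2 at the right at 1.11, and both genotypes give nearly the same order.

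Ndufb4 shares 390 identical bases with Gm3244, a processed pseudogene, so its reads could have been divided between them. Gm3244 held 67.5% as many counts as Ndufb4. Ndufb4 was at 34.8, 33.6, 34.6 and 28.8 CPM in WT replicates 1 to 4 and at 33.6, 33.8, 38.0 and 35.6 CPM in S155A replicates 1 to 4, with a log2 fold change of 0.097 (standard error 0.097). The sum of both was at 57.1, 57.8, 56.2 and 50.8 CPM in WT replicates 1 to 4 and at 57.2, 59.2, 60.3 and 57.4 CPM in S155A replicates 1 to 4, with a log2 fold change of 0.077 (standard error 0.085). Summing moved WT replicate 4 closer to the other mice. For the 6 other genes with a copy or overlapping transcript of at least 95% identity over 300 bases or more, it held at most 1.18% of the counts (Ndufa12). Another annotated gene overlaps 19 of the 37 genes, for 15 of them on the opposite strand, and use of strand in the counting is not given in the sources used here.

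The other genes of the complex and its assembly gave smaller or more mixed values. Ndufab1 was at 78.4, 80.3, 83.8 and 65.3 CPM in WT replicates 1 to 4 and at 87.5, 79.6, 72.5 and 93.2 CPM in S155A replicates 1 to 4. Its low-series mice were higher and its high-series mice lower in S155A, by 0.34 and -0.11 in mean log2 CPM. Of 16 assembly factors tested, 15 had a log2 fold change above 0, with a median of 0.10, and 0 passed the test. The largest were 0.21 for Ndufaf3, 0.20 for Foxred1 and 0.18 for Ndufaf6. The smallest were -0.032 for Acad9, 0.015 for Tmem126b and 0.020 for Ndufaf1. Within the low series 10 of the 16 assembly factors were higher in S155A mice and within the high series 14 of 16, with medians of 0.029 and 0.16.

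The 7 subunits encoded by mitochondrial DNA stood closer to their gene means in WT replicate 4 and S155A replicate 2 than the nuclear genes did, a difference that was not tested. Their median log2 CPM relative to the gene means was -0.077 in WT replicate 4 and 0.039 in S155A replicate 2, with the highest value, 0.14, in S155A replicate 4. Of these 7 genes, 5 had a log2 fold change above 0, between -0.17 (mt-Nd2) and 0.39 (mt-Nd3), and 0 passed the test. mt-Nd3 was at 37.6, 46.4, 50.5 and 49.2 CPM in WT replicates 1 to 4 and at 53.5, 59.4, 66.2 and 61.2 CPM in S155A replicates 1 to 4. Every S155A mouse was above every WT mouse (unadjusted p = 0.00796, adjusted p = 0.993 from edgeR), and the exact permutation p, two-sided, was 0.0286, the smallest it can be. It was named after its values were seen. mt-Nd1 and mt-Nd2 were higher in S155A mice in the low series, by 0.19 and 0.17, and lower in the high series, by -0.37 and -0.53.

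Nuclear subunits of complexes III, IV and V were, like complex I, lowest in WT replicate 4 and highest in S155A replicate 2. The median log2 fold change was 0.12 for complex III (9 of 9 above 0), 0.098 for complex IV (10 of 10), 0.13 for complex V (16 of 16) and 0.055 for complex II (3 of 4), and 0 genes passed in each. WT replicate 4 had a median of -0.22 relative to the gene means in complexes III, IV and V, and S155A replicate 2 had 0.22, 0.21 and 0.24. Complex II differed in part, with 0.096 in WT replicate 1 and -0.076 in S155A replicate 4, where complex I was at -0.10 and 0.039. A further list held the 92 genes tested whose symbols start with Rpl or Rps and a number. It was meant for cytosolic ribosomal proteins, but its name rule also admits genes of like name, such as the S6 kinases (Rps6k symbols). The 92 genes were above 0 in 84 cases, with a median of 0.16 and 0 called. They too were highest in S155A replicate 2, at 0.14 relative to the gene means (85 of 92 above). WT replicate 4 stood at 0.0087, and WT replicate 3 was lowest at -0.21.

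**Figure D5:**
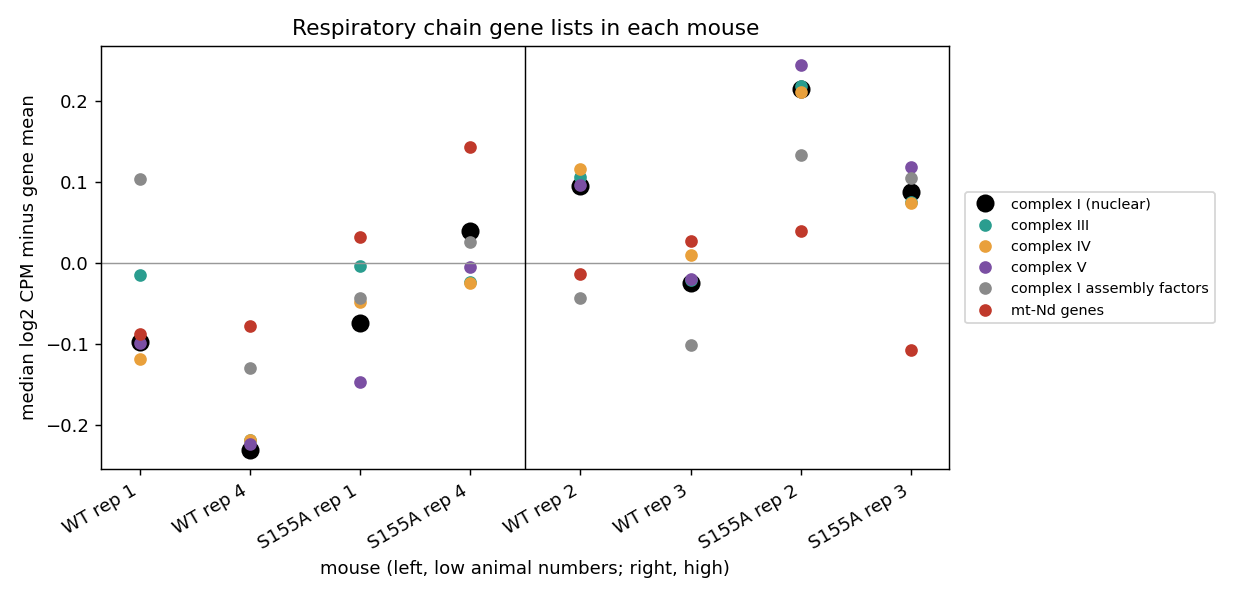
Median log2 CPM relative to each gene's mean over the 8 mice for complex I (large black points), complexes III, IV and V, the assembly factors and the mt-Nd genes, by mouse, low animal numbers left of the line and high ones right. In WT replicate 4 complexes I, III, IV and V lie between -0.23 and -0.22 and in S155A replicate 2 between 0.21 and 0.24, while the mt-Nd genes are at -0.077 and 0.039.

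Regulators of mitochondrial gene expression showed no common direction. Of 12 tested, 6 had a log2 fold change above 0, with a median of 0.014, and 0 passed the test. Nrf1, whose half-site was counted above, was at 13.0, 13.2, 9.62 and 11.2 CPM in WT replicates 1 to 4 and at 11.3, 10.8, 10.6 and 9.27 CPM in S155A replicates 1 to 4, a log2 fold change of -0.17 (standard error 0.14). Values for Gabpa, which binds the ETS core, and Tfam, which packs and transcribes mitochondrial DNA, were -0.14 and -0.086. Yy1 was at 23.2, 15.2, 19.1 and 16.9 CPM in WT replicates 1 to 4 and at 16.2, 13.1, 15.1 and 16.9 CPM in S155A replicates 1 to 4 (log2 fold change -0.28, standard error 0.15). S155A replicate 2, the mouse with the most complex I transcripts, had the lowest Yy1. WT replicate 4, the mouse with the fewest, was at 16.9 CPM, as was S155A replicate 4, and a link was not tested. The nuclear receptor Esrra was at 0.19 (standard error 0.17), and the coactivators Ppargc1a and Ppargc1b were at 0.35 (standard errors 0.51 and 0.25). Ppargc1a was highest in S155A replicate 4, at 29.5 CPM, where the 7 other mice were between 5.54 and 14.2 CPM. Its log2 fold change without that mouse was not examined.

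Markers of other cell types differed between mice, with 0 genes called in each list, and their part in the small complex I differences was not tested. All 8 markers of Kupffer cells and macrophages and all 8 of lymphocytes had log2 fold changes above 0, with summed levels of 224 to 443 CPM in WT and 234 to 514 CPM in S155A mice, and of 5.33 to 12.7 and 8.69 to 96.2 CPM. Within the low series 1 of 8 Kupffer cell and macrophage markers was higher in S155A mice (median -0.36) and within the high series 8 of 8 (median 0.88). The lymphocyte sum of 96.2 CPM was that of S155A replicate 3, where Jchain, a plasma cell gene, made up 73.8 CPM, and the 3 other S155A mice were between 8.69 and 10.3 CPM. Stellate cell markers were above 0 in 0 of 6 cases (228 to 297 and 98.8 to 234 CPM), red blood cell markers in 0 of 6 (411 to 2648 and 951 to 1155 CPM) and endothelial markers in 2 of 6 (126 to 185 and 111 to 147 CPM). WT replicate 4 had the highest stellate (297), red blood cell (2648) and endothelial (185) sums of the 8 mice. S155A replicate 2 had the lowest stellate (98.8) and endothelial (111) sums, with 1155 CPM for red blood cells. In Kupffer cell and macrophage markers, WT replicate 4 (443 CPM) and S155A replicate 2 (514 CPM) were each the highest of their genotype. Hepatocyte markers summed to 94240 to 113700 CPM in WT and 91710 to 130500 CPM in S155A mice, with 5 of 7 above 0, and 2 of 7 were higher in the low series and 6 of 7 in the high series. Pancreatic acinar markers summed to 4.18 to 48.1 CPM and 4.49 to 6.43 CPM, and adipocyte markers to 2.69 to 5.77 and 4.92 to 6.12 CPM. Muscle, which is rich in complex I, left at most 0.274 CPM, with 4 of 7 markers, Acta1, Myh1, Myh4 and Myh6, at 0 in all 8 libraries.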

How the data were processed

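Liver RNA of 8 mice was made into stranded mRNA libraries and sequenced as paired reads. The table deposited by the authors holds estimated counts of genes, made with salmon and scaled for transcript length but not for library size. The submitters' processing notes list bcl2fastq, STAR, SAMtools, MultiQC and DESeq2 with build GRCm38. Versions, the annotation release and the use of strand are not given in the sources used here. Length scaling can move a gene whose isoforms differ between mice. All 8 columns of values were matched to mice by animal number, and 0 were left unused. Of 45706 gene identifiers, 45143 were in GENCODE release M21.

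Estimated counts were rounded, genes kept with filterByExpr, and S155A compared with WT in edgeR 4.0.16 (R 4.3.3) by its quasi-likelihood test after TMM scaling, with no block. Standard errors and 95% intervals come from its F statistic. Log2 CPM used a prior count of 2, and the exact permutation test was two-sided. The scripts were tested on simulated data. No pair of libraries was a copy of another, with a chi-square of at least 40.2 per gene between libraries where sampling noise gives about 1. Alternatives were DESeq2 1.42.0, limma-voom (limma 3.58.1), other scalings, filters and blocks, a robust fit, and leaving out each mouse.

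The members and lists were chosen with earlier results of these data known. Values per mouse or summary values were given by rule for the core subunits, genes at an unadjusted p under 0.05, the 3 largest and 3 smallest log2 fold changes, the 3 highest and 3 lowest levels, genes whose groups do not overlap, genes with close copies, genes whose sign turned without 1 mouse, 7 regulators and the assembly factors at either end. Other genes named with values, such as Ndufs4, Ndufs6, Ndufb7, Ndufb10 and mt-Nd genes, were chosen after their values were seen. Levels between genes were compared per kilobase of the principal transcript. Promoters are those of RefSeq. Values of 1 gene are counted in the totals and not reported here.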

Additional observations from a re-analysis of the deposited data

Results flagged for a closer look

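In 78 groups of 4 mice, 1 mouse stood apart from the rest of its group in 4 cases, and chance gives about 4, since it marks about 1 group in 20. Ndufb8 was at 143.0 CPM in S155A replicate 2, while the 3 other S155A mice were between 127 and 129 CPM. Ndufa8 was at 107.1 CPM in S155A replicate 3, the others being between 116 and 117 CPM. WT replicate 4 had the lowest Ndufa4 level, 222.0 CPM, the others of its genotype being between 256.0 and 261 CPM. WT replicate 1 had the highest Plin5 level among WT mice, 253.7 CPM, with 182 to 194 CPM in the rest.

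For Ndufa8 both S155A mice of the low series were higher, and both of the high series lower, than the WT mice of their series. The difference between genotypes in log2 CPM was 0.22 for low and -0.10 for high animal numbers, and the interaction was -0.313 (edgeR quasi-likelihood test, unadjusted p = 0.128), so it did not pass the test.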

How the results depend on the processing

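In every alternative 0 of the 37 genes passed an adjusted p of 0.05 (edgeR, limma-voom and DESeq2), with at most 5 at an unadjusted p under 0.05, without S155A replicate 1, where 6.02% of all genes (894) were. DESeq2 called 6 genes of the whole table and edgeR and limma-voom 0. The median log2 fold change was 0.082 with library size alone, where the median of all genes was -0.042, and with 1 mouse left out it ran from 0.071 to 0.19. The number of genes above 0 ran from 28 to 36. The mice of 1 gene, Ndufc2, did not overlap with library size alone.

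Of 666 single-gene values under the alternatives, 651 kept their sign and 15 turned, over 9 genes. Ndufb6 was at -0.0076 with library size alone. Leaving out 1 mouse gave a log2 fold change from -0.058 to 0.069 for Ndufb6, -0.070 to 0.091 for Ndufs1, -0.016 to 0.15 for Ndufs8, -0.0077 to 0.11 for Ndufv2, -0.0062 to 0.12 for Ndufa1, -0.030 to 0.097 for Ndufa8, -0.024 to 0.15 for Ndufa11, -0.0085 to 0.17 for Ndufb3 and -0.28 to 0.029 for Ndufa4l2. The cause was not tested. The sum of Ndufb4 with its copy was an alternative chosen after seeing the data.

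With the replicate number as a block, 0 genes were called and the median was 0.12 (smallest adjusted p 0.967). Deviations of same-numbered mice correlated at 0.0565, 0.166, -0.111 and 0.129, and those of differently numbered mice at -0.194 to 0.14. So few correlations cannot decide whether the numbers pair the mice. With the animal series as a block the median was 0.12 (smallest adjusted p 0.945). A filter of 1 CPM in 4 libraries dropped Ndufa4l2. For 36 of 37 genes the upper limit of the interval was under 1.5-fold. Transcripts do not measure the protein complex or its activity.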
